A study of Mus musculus with 30 samples.

Results

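The genes described here are 43 interferon-stimulated genes and interferon receptors of the mouse, picked from their known part in the interferon response. Earlier results of these data were known when they were picked. A gene was read from a probe set that the platform annotation gives to that symbol alone, and 39 of the 43 had one, out of 19937 genes tested. Isg15, Gbp2 and Igtp were found only on probe sets shared with another gene and Ifi44 on none, so no level is given for these 4. Levels were measured on 30 Affymetrix arrays, 1 per culture, of a B-cell lymphoma line from a C57BL/6J mouse. The line carries the Eμ-Myc transgene, in which an immunoglobulin heavy chain enhancer drives Myc in B-lineage cells, and lacks Cdkn2a, and both alterations are shared by every group. Parental cells received 750 nM mafosfamide, a form of cyclophosphamide that is active in culture, and were harvested after 0, 6, 12, 24 and 48 h (n = 5, 4, 4, 5 and 5). The lines R100, R500, R1000 and R4000, taken at 100, 500, 1000 and 4000 nM during a single dose escalation, were each measured once untreated, and R500, R1000 and R4000 once more after 24 h of 750 nM. These lines are therefore successive stages of the same selection and not independent derivations. All cells grew on a feeder layer of irradiated Cdkn2a-/- mouse embryonic fibroblasts, so the RNA may hold fibroblast transcripts.

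Type I interferons bind a receptor made of Ifnar1 and Ifnar2, and interferon gamma binds Ifngr1 and Ifngr2. Receptor-bound Janus kinases then activate transcription factors, among them a complex that holds Irf9 and switches on genes with an interferon-stimulated response element (ISRE), while the interferon gamma signal also acts through gamma-activated sites (GAS). The products include sensors of viral nucleic acid, enzymes and binding proteins that block viral RNA, GTPases that attack microbes in vacuoles, and the inhibitors Socs1 and Usp18, which switch the signal off again.

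Promoter sequences of the members were taken from RefSeq (build GRCm38.p6) as windows of 300 bases, 250 before and 50 after each gene start. Of the 43 genes, 34 had an entry. The ISRE core GAAANNGAAA, searched on both strands with overlapping matches allowed, was present in 16 of these 34 (47.1%), and in 3.99% of the 27025 gene symbols in the table. The palindromic GAS motif TTCNNNGAA was present in 8 of the 34 (23.5%) and in 9.55% of all symbols. Bst2, Igtp and Oas1a held both, and in Bst2 a GAS match overlaps an ISRE match. The windows below show 1 match a gene, the nearest to the start in the listed promoter used, in the genes whose array values are described first, then in Socs1 and Isg15 and in 3 further antiviral genes (Ifit1, Ifit3 and Rsad2), each read in the direction of transcription with the ISRE matches that lie whole in the window in capitals. Further ISRE matches in Isg15 and Ifit1 and the GAS match in Bst2 reach into the window only in part and are left in lower case. Trim30a has another listed promoter, not shown, with a match just after its start. A match is a description of the letters and not a proven binding site.
Bst2, chr8:71537577-71537606, minus strand: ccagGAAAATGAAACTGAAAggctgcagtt
Gbp3, chr3:142559995-142560024, plus strand: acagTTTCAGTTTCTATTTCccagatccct
Irgm1, chr11:48871425-48871454, minus strand: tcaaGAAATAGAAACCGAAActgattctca
Trim30a, chr7:104465210-104465239, minus strand: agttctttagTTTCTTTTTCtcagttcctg
Socs1, chr16:10785594-10785623, minus strand: gccgGAAAGAGAAACCGAAAgcgggggtgg
Isg15, chr4:156200865-156200894, minus strand: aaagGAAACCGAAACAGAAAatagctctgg
Ifit1, chr19:34640794-34640823, plus strand: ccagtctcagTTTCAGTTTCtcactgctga
Ifit3, chr19:34583397-34583426, plus strand: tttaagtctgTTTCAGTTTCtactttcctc
Rsad2, chr12:26456553-26456582, minus strand: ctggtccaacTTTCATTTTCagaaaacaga

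In Bst2, Gbp3, Irgm1, Socs1 and Isg15 the capitals run on because overlapping matches share a GAAA block. Of 26 ISRE matches in the members, 23 lay before the gene start, and 10 members had one within 100 bases before it. The windows of Ifit2 and Ifngr2 held no ISRE core. In Irf1, which encodes a transcription factor that interferon gamma induces, a GAS match was present instead, printed here with the motif in capitals.
Irf1, chr11:53769914-53769942, plus strand: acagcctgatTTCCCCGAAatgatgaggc

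**Figure D1:**
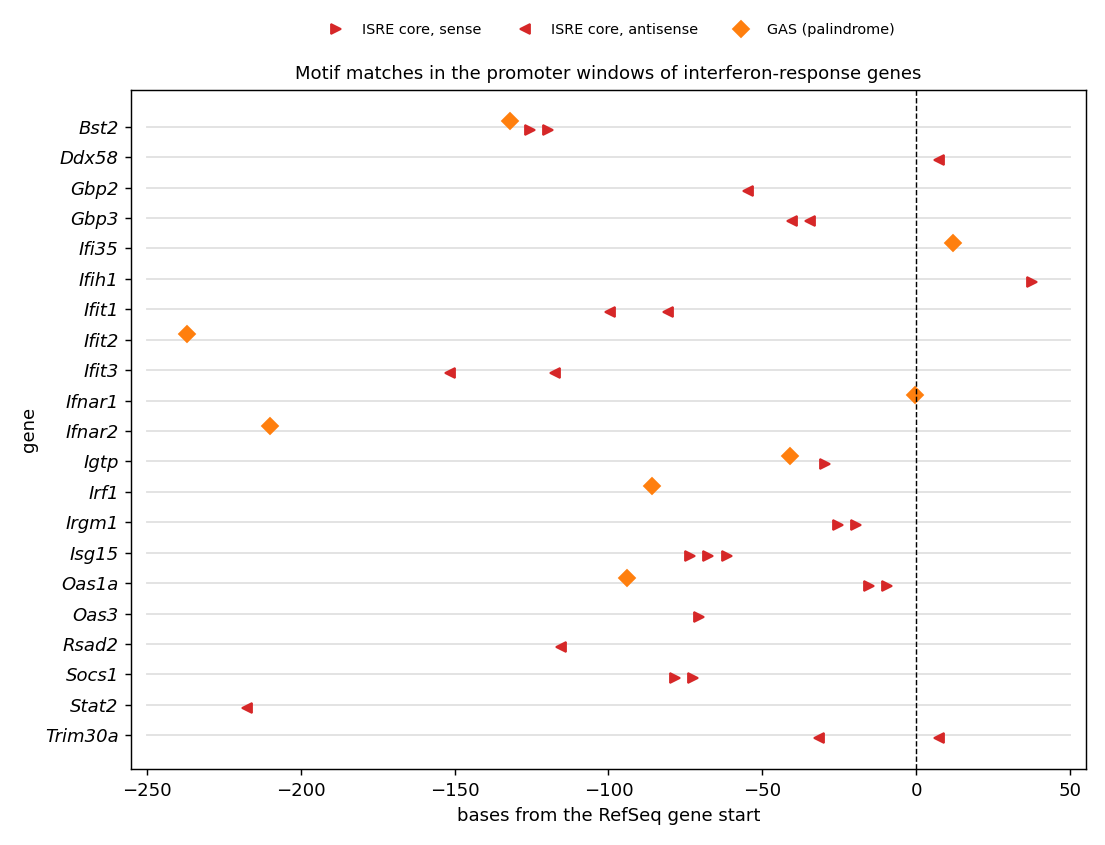
Matches to the ISRE core (red arrows, pointing in the direction of the motif) and to the GAS motif (orange diamonds) in the RefSeq promoter windows of the 21 members that hold any, plotted by the distance in bases from the gene start. Most ISRE matches (23 of 26) lie before the start.

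The deposited values are RMA log2 intensities, which are comparable between arrays for the same gene but not between genes. Over the 30 arrays, 24 of the 39 members had a mean above that of the median gene (7.55), and 15 lay at or below it, where small differences are compressed. These 15 were Ifit1, Ifit2, Ifit3, Irf7, Oas1a, Oas2, Oas3, Oasl2, Mx1, Mx2, Rsad2, Usp18, Ifih1, Rtp4 and Zbp1. All 11 measured B cell markers lay above the median gene at 0 h, and none of 13 T and NK cell markers did. The fifth 0 h array had the narrowest distribution: its interquartile range was 3.07, and those of the others ran from 3.34 to 3.64. Errors of single groups are SD, and differences are limma estimates with p-values adjusted by the Benjamini-Hochberg method over all genes tested.

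Before drug was added, the untreated parental cultures already differed from each other in many of these genes. Irgm1, a GTPase that acts in autophagy and in the defence against vacuolar microbes, stood at 10.53, 9.89, 8.91, 9.33 and 8.24 in cultures 1 to 5 at 0 h. Herc6, which attaches the ubiquitin-like protein Isg15 to its targets in mice, stood at 8.69, 8.68, 7.72, 7.99 and 7.09. Cultures 1 and 2 were high and culture 5 was the lowest in both. Cultures 1 and 2 were also the highest in the RNA sensor Ddx58 (RIG-I), with 10.01 and 9.97 in cultures 1 and 2 and 8.75, 9.44 and 8.96 in cultures 3 to 5. Irf9, the DNA-binding part of the ISRE-binding complex, had 9.07 and 9.28 against 8.41, 8.56 and 8.04. The feedback inhibitor Socs1 ran the other way, at 8.38 and 8.18 in cultures 1 and 2 and at 9.45, 9.19 and 9.16 in cultures 3 to 5.

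At 0 h, 11 of the 39 members lay among the tenth of genes with the largest SD. The median SD was 0.23 over the members and 0.19 over all genes. Culture 5 gave the lowest value for 18 members (46.2%) at 0 h, where it was the lowest for 32.0% of all genes, and for 21 members (53.8% against 24.8%) at 48 h. Culture 2 gave the highest value for 19 members (48.7%) at 6 h, against 40.3% of all genes, and for 21 members (53.8%) at 12 h, where it was the highest for 7971 of the 19937 genes. These are counts over genes that share arrays, and no test was made on them.

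**Figure D2:**
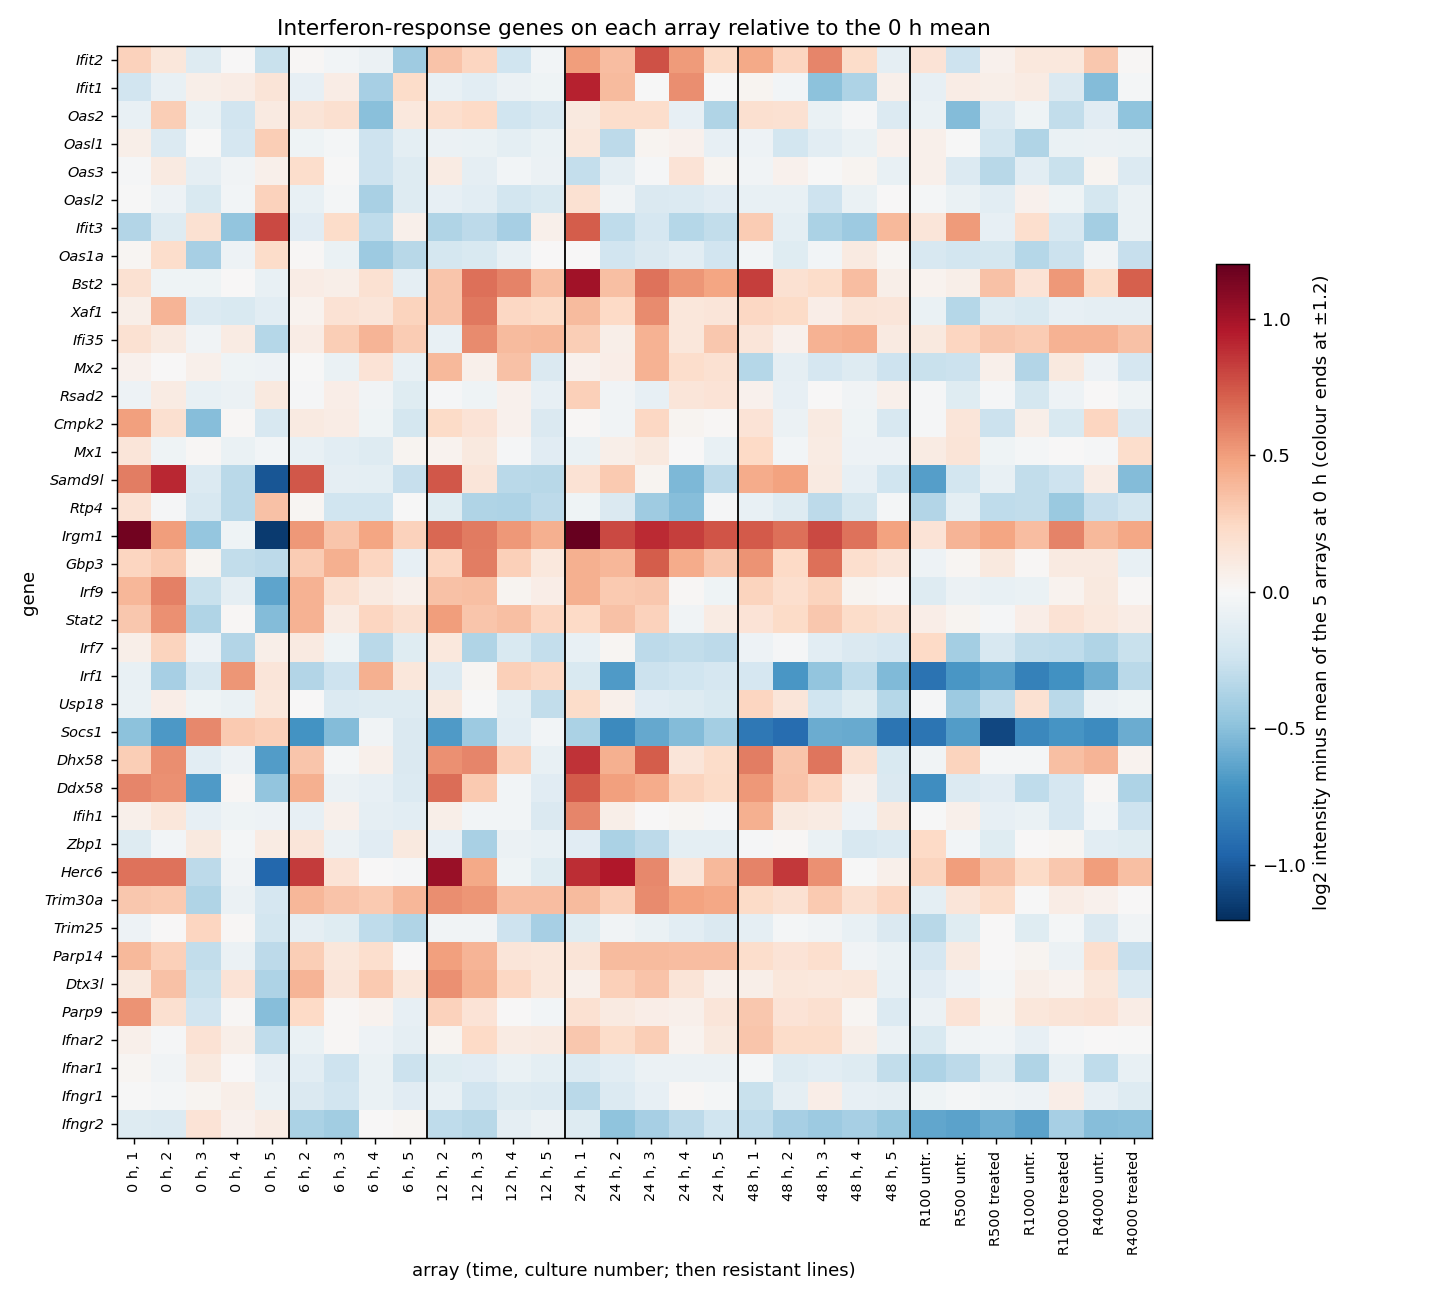
Log2 intensity of each of the 39 measured members (rows) on each of the 30 arrays (columns), minus the mean of the 5 arrays at 0 h; red is higher and blue lower, and the colours end at ±1.2. The first block shows cultures 1 and 2 above cultures 3 to 5 in Irgm1, Herc6, Ddx58 and Irf9 and below them in Socs1, and the right-hand block shows Socs1, Irf1 and Ifngr2 low in the resistant lines.

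The time course asks which members change under mafosfamide, and the 0 h cultures served as the baseline for every later time. At 24 h, 5 of the 39 were higher and 1 was lower, against 4.35% and 2.43% of all genes. The genes that rose were Bst2, Trim30a, Irgm1, Ifit2 and Gbp3, by 1.35-fold to 1.86-fold, and the gene that fell was Ifngr2. At an unadjusted p under 0.05 stood 16 members (41.0%), where 29.4% of all genes did. Leaving out 1 array gave 2 calls, Bst2 and Trim30a, without 24 h array 2, 3 or 4 or 0 h array 3 or 5, and 3 without 24 h array 1. The median member lay at a log2 difference of 0.09 and the median gene at -0.04, with 23 members above 0 and 16 below.

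Bst2 (tetherin) is a membrane protein that holds budding virus particles on the cell surface. It stood at 9.38, 9.16, 9.15, 9.21 and 9.11 in cultures 1 to 5 at 0 h and at 10.21, 9.56, 9.85, 9.73 and 9.68 at 24 h. Every 24 h array lay above every 0 h array, which was true of 1.98% of all genes (2.6% had every 24 h array lower). Bst2 rose 1.52-fold at 24 h (log2 difference 0.60, SE 0.12, adjusted p = 0.00778), and it was higher in 5 of 5 cultures of the same number. At 6 h its 4 values were 9.29, 9.27, 9.39 and 9.10, close to the 0 h range, at 12 h they were 9.53, 9.87, 9.80 and 9.57, and at 48 h they ran from 9.27 to 10.03.

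Gbp3, a guanylate-binding GTPase, was the other member whose arrays did not overlap. Its levels were 8.08, 8.13, 7.85, 7.52 and 7.51 at 0 h and 8.25, 8.21, 8.54, 8.26 and 8.14 at 24 h, a 1.38-fold rise (log2 difference 0.46, SE 0.14, adjusted p = 0.0438). Cultures 1 and 2, already high at 0 h, gained 0.17 and 0.08, and cultures 3 to 5 gained 0.69, 0.74 and 0.63. Because a gain subtracts the 0 h level, a high 0 h level by itself lowers it. Leaving out 1 array at a time ended the Gbp3 call in 7 of 10 cases (24 h array 1, 2, 3 or 4, or 0 h array 3, 4 or 5), with differences of 0.38 to 0.54 over the 10, and median centring of the arrays ended it too (0.44, adjusted p = 0.0568).

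Trim30a encodes a TRIM protein that restrains inflammatory signalling. It stood at 11.37, 11.37, 10.69, 10.98 and 10.85 at 0 h and at 11.43, 11.34, 11.62, 11.53 and 11.52 at 24 h. It rose 1.35-fold (log2 difference 0.44, SE 0.10, adjusted p = 0.0148), with cultures 1 and 2 changed by 0.06 and -0.03 and cultures 3 to 5 by 0.93, 0.55 and 0.67. Its 4 values at 6 h, 11.37 to 11.45, were level with the highest 0 h arrays, and the 6 h difference of 0.36 did not pass the test (adjusted p = 0.453).

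Irgm1 converged on a narrow range, 10.58, 10.17, 10.27, 10.21 and 10.14 at 24 h, from the wide one at 0 h given above. Its SD was 0.88 at 0 h and 0.18 at 24 h. The spread over all genes was also wider at 0 h, with a median SD of 0.19 against 0.12 at 24 h. The rise of Irgm1 was 1.86-fold (log2 difference 0.89, SE 0.25, adjusted p = 0.0368), and the cultures gained 0.05, 0.29, 1.36, 0.88 and 1.90 in the order of their numbers. The gain was smallest where the 0 h level was highest. Each gain subtracts the 0 h level, so a high 0 h level by itself lowers the gain. Without the fifth 0 h array the difference was 0.61 and was not called. The call was also lost without 24 h array 1, 2, 3 or 4 or 0 h array 3, with differences of 0.61 to 1.18 over the 10 cases.

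Ifit2 binds viral RNA and slows its translation. Its arrays read 6.59, 6.45, 6.16, 6.32 and 6.05 at 0 h and 6.82, 6.69, 7.08, 6.82 and 6.54 at 24 h, so that only the fifth 24 h value reached into the 0 h range. It rose 1.39-fold (log2 difference 0.47, SE 0.14, adjusted p = 0.0420) and was higher in 5 of 5 cultures. Leaving out 24 h array 1, 2, 3 or 4 or 0 h array 3 or 5 ended the call (0.40 to 0.54 over the 10 cases). Its relatives did not pass the test: Ifit1 differed by 0.37 (adjusted p = 0.119) and Ifit3 by -0.08 (adjusted p = 0.821), although both promoters carry an ISRE core.

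Ifngr2, the signalling chain of the interferon gamma receptor, fell. It stood at 12.03, 12.01, 12.35, 12.24 and 12.28 at 0 h and at 12.02, 11.70, 11.78, 11.86 and 11.94 at 24 h, and it was lower in 5 of 5 cultures. The log2 difference was -0.32 (SE 0.09, adjusted p = 0.0429), with culture 1 at -0.00345 and the others between -0.57 and -0.32. The call was lost without 24 h array 2, 3, 4 or 5 or 0 h array 3 or 5 (-0.36 to -0.28 over the 10 cases). The other receptor chains did not pass the test, with Ifnar1 at -0.10, Ifngr1 at -0.12 and Ifnar2 at 0.20.

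**Figure D3:**
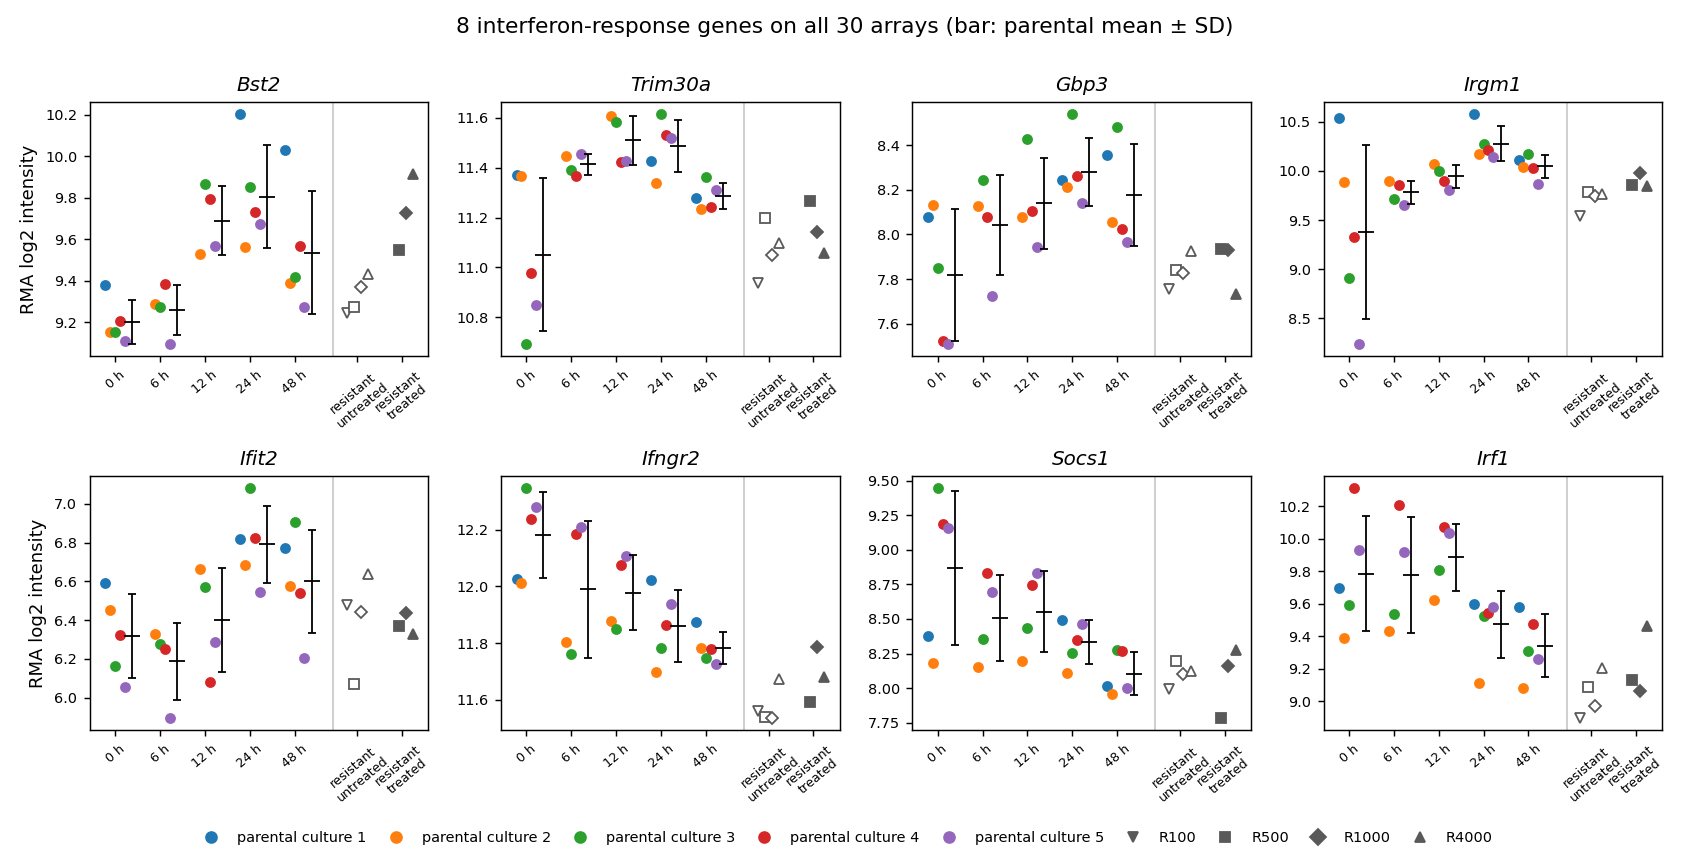
RMA log2 intensity of 8 members on every array, one panel per gene with its own axis. Coloured points are parental cultures 1 to 5 by time, black bars are the parental mean ± SD, and grey symbols are the resistant lines (open untreated, filled after 24 h of 750 nM). Bst2 at 24 h lies above all 0 h arrays, Irgm1 and Trim30a close up from a wide spread at 0 h, and Ifngr2 and Irf1 in the untreated resistant lines lie below all parental 0 h arrays.

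Samples with the same culture number deviated together weakly at 24 h and 0 h (correlations over genes 0.131 to 0.342). For cultures 4 and 5 a 0 h array of another number correlated more (0.239 against 0.196, and 0.194 against 0.131). The comparison was also fitted with the culture number as a block. It then gave 11 members higher and 5 lower, where 11.8% of all genes were higher and 11.9% lower. The 6 genes above were all called again. Added as higher were the RNA sensors Ddx58 (0.43, adjusted p = 0.0224) and Dhx58 (LGP2; 0.48, adjusted p = 0.00958), Herc6 (0.59, adjusted p = 0.00524), Parp14, an ADP-ribosyltransferase (0.33, adjusted p = 0.0256), the pro-apoptotic Xaf1 (0.29, adjusted p = 0.0432) and Ifnar2 (0.20, adjusted p = 0.0280). Added as lower were Socs1 (-0.54, adjusted p = 0.0157), Irf1 (-0.31, adjusted p = 0.0220), the receptor-transport protein gene Rtp4 (-0.24, adjusted p = 0.0238) and Irf7, a master factor of type I interferon production (-0.20, adjusted p = 0.0472). Another, dimmer probe set of Irf1 differed by only -0.08 between the 24 h and 0 h means. Socs1 fell in cultures 3 to 5 by 1.19, 0.84 and 0.69 and stood at 0.11 and -0.08 in cultures 1 and 2. Without the fifth 0 h array, the one with the narrow distribution, the blocked fit called 7 members higher and 2 lower, against 8.87% and 5.55% of all genes. The 6 genes above, Dhx58, Herc6 and Socs1 were called, and the calls of Ddx58 (adjusted p = 0.0603), Parp14 (0.0768), Xaf1 (0.0990), Ifnar2 (0.0872), Irf1 (0.0538), Rtp4 (0.0758) and Irf7 (0.141) were lost.

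By role at 24 h, without the block, 2 of 2 GTPases were called (both higher), 1 of 8 IFIT and OAS genes, 1 of 9 antiviral effectors, 1 of 3 genes of the Isg15 and ubiquitin pathway and 1 of 4 receptors. None of 4 transcription factors, 2 feedback inhibitors, 4 sensors or 3 members of the PARP group was called, and at an unadjusted p under 0.05 these groups had 0, 1, 2 and 1. The OAS family, which makes the second messenger that activates RNase L, showed little difference. Oas1a, Oas2, Oas3, Oasl1 and Oasl2 lay between -0.15 and 0.02. Mx1, Rsad2 and Cmpk2, 3 genes that interferon usually induces, stood at 0.01, 0.09 and 0.05, and Mx2 and Ifi35 at 0.19 and 0.25. Samd9l stood at -0.06, Trim25, which activates RIG-I, at -0.11, Usp18 at -0.04, Ifih1 (MDA5) at 0.13, Zbp1 at -0.21, Irf9 at 0.20, Stat2 at 0.19, Parp9 at 0.12 and its partner Dtx3l at 0.18. Of these genes, Zbp1 (adjusted p = 0.0927) and Ifi35 (adjusted p = 0.165) were the ones with an unadjusted p under 0.05, and after median centring Zbp1 was called as lower (-0.23, adjusted p = 0.0480). Mx1, Mx2, Rsad2, Usp18, Ifih1, Zbp1 and every OAS gene but Oasl1 lay below the median gene. Small differences are compressed there, so a value near 0 does not show that such a gene failed to respond. Among measured members with an ISRE core in their listed promoter, 4 of 13 were called higher and the median difference was 0.19. Of all 607 tested genes with the core in a listed promoter, 4.61% were called higher and 2.31% lower (median -0.04), close to the 4.35% and 2.43% of all genes. Of the members with a listed promoter lacking it, 1 of 17 was called higher and 1 lower (median -0.04), and of the 9 with no listed promoter none was called.

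**Figure D4:**
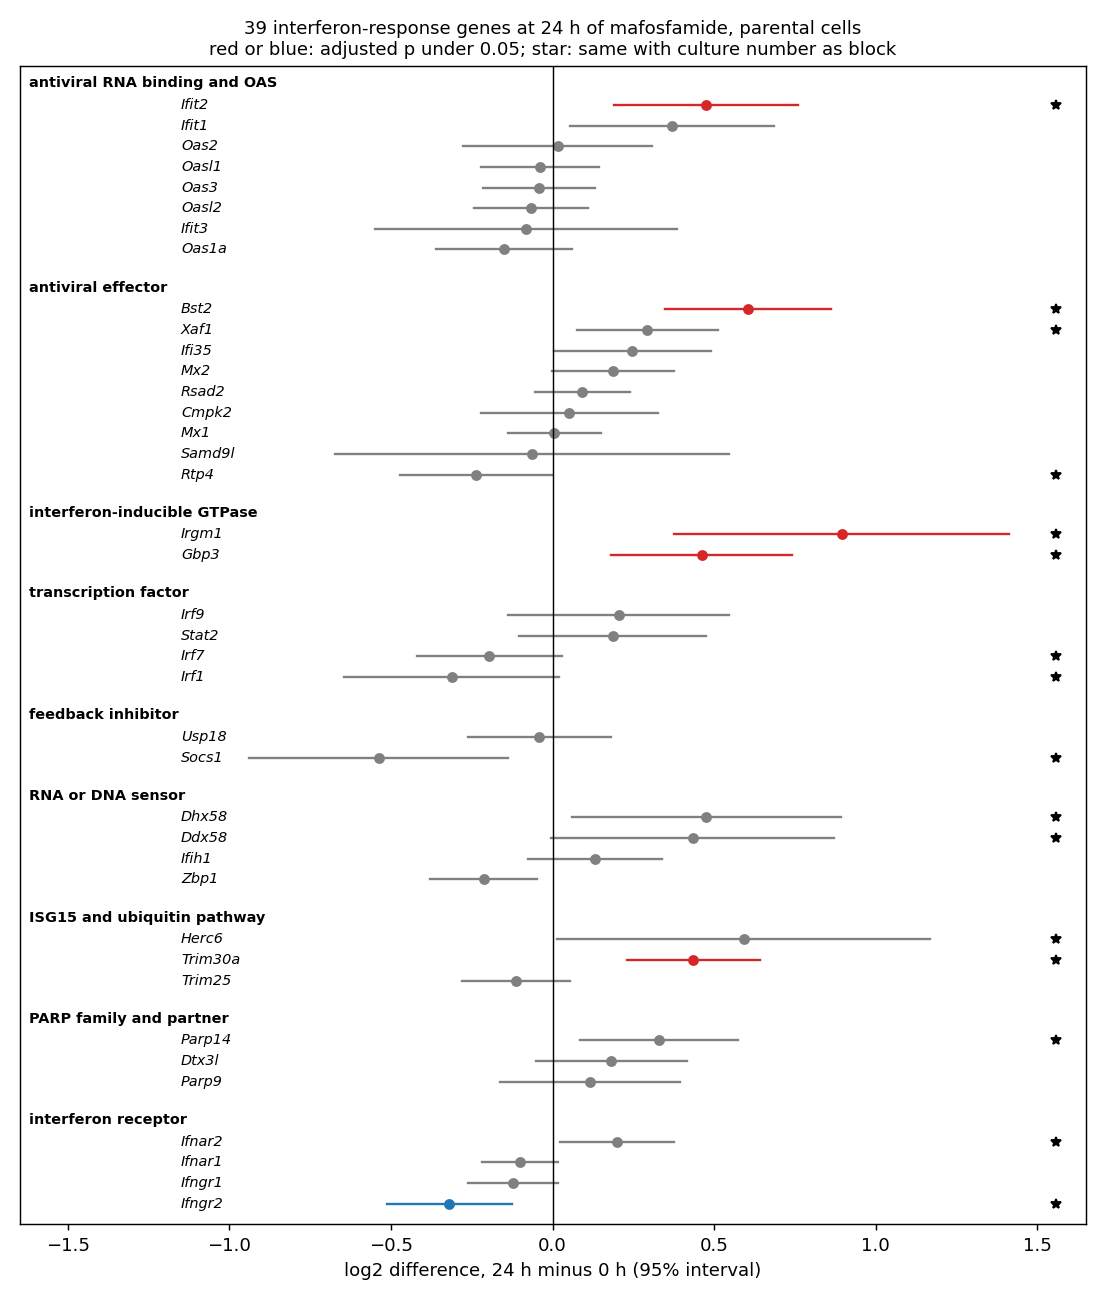
Log2 difference between 24 h and 0 h of mafosfamide in parental cells (points) with 95% intervals (lines) for the 39 measured members, grouped by role. Red (5 genes) and blue (1 gene) passed the test without the block, and stars mark the 16 genes that passed with the culture number as a block; the OAS genes sit close to 0.

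The fibroblast markers moved in the same comparison. Of 26 measured, 14 were higher at 24 h and none was lower, among them Acta2, Postn and Lox. Their mean lay between 8.03 and 8.57 on the 0 h arrays and between 8.31 and 9.69 on the 24 h arrays. At 24 h it was 9.69, 9.32, 8.31, 9.10 and 8.88 in cultures 1 to 5. Culture 1 also had the highest Bst2. Culture 3, with the lowest fibroblast mean, had the next highest Bst2 (9.85), and culture 2 had the lowest (9.56). A link between the fibroblast mean and Bst2 was not tested. In bulk RNA, fewer lymphoma cells beside the feeder cells and less RNA per lymphoma cell cannot be told apart. With this mean as a covariate, Gbp3 (0.72, adjusted p = 0.0159), Trim30a (0.57, adjusted p = 0.0154) and Ifngr2 (-0.45, adjusted p = 0.0474) were called, and Bst2 (0.49, adjusted p = 0.125), Irgm1 (0.93, adjusted p = 0.166) and Ifit2 (0.60, adjusted p = 0.0852) were not. With both the block and the covariate 13 members were higher and 2 lower, including all 6, against 8.36% and 2.61% of all genes. Several differences were over 1.5 times as large in that fit, with Irgm1 at 1.55, Trim30a at 0.84, Gbp3 at 0.78, Ifngr2 at -0.52 and Socs1 at -1.08. The B cell markers had none called of 11, the myeloid markers none of 13 and the T and NK cell markers none of 13, with 2, 4 and 4 at an unadjusted p under 0.05. Of 8 plasmacytoid dendritic cell markers Cox6a2 was lower.

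Other genes of the pathway were read beside the members. Of 15 measured interferon genes, 3 were lower at 24 h (Ifna14 by a log2 difference of -0.36, Ifna5 by -0.55 and Ifnl2 by -0.43) and none was higher. All 15 lay below 0, with a median of -0.24, and 12 or 13 of them had a mean below that of the median gene in every group. Their mean was 6.67 on the fifth 0 h array, the one with the narrow distribution, against 6.30 to 6.48 on the other 0 h arrays. The T and NK cell markers, all below the median gene, also lay below 0 in 13 of 13 (median -0.09), and whether the array's distribution has a part in either was not tested. Among 21 signalling genes none was called (4 at an unadjusted p under 0.05). Of 16 sensing genes, Mavs, the mitochondrial adaptor of RIG-I (0.36, SE 0.09, adjusted p = 0.0250), and Tbk1, the kinase that activates Irf3 (0.39, SE 0.11, adjusted p = 0.0417), were higher.

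Of 44 further interferon-stimulated genes, 5 were higher and 1 lower at 24 h, against 4.35% and 2.43% of all genes. The exonuclease gene Isg20 rose from 9.12 ± 0.26 to 9.82 ± 0.22 (n = 5 each, adjusted p = 0.00568), and Shisa5, an apoptosis gene that p53 also induces, from 9.77 ± 0.18 to 10.30 ± 0.30 (adjusted p = 0.0142). Lgals3bp, a secreted galectin-binding protein (1.03, adjusted p = 0.0214), and Trim21, an antibody receptor in the cytosol (0.48, adjusted p = 0.0424), rose as well. Ifitm2, which blocks virus entry, also rose (1.13, adjusted p = 0.0309), and Slfn1 fell (-0.38, adjusted p = 0.0280). Of the 44, 34 lay above 0 (77.3%, median 0.16), where 42.9% of all genes did. The fits with the block, with the fibroblast mean and with arrays left out were read for the members only, and not for any of these pathway genes. Whether feeder cells have a part in these rises was not tested.

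At the other times no member passed the test. At 6 h, none was called, where 0.01% of all genes were higher and 0.01% lower. At an unadjusted p under 0.05 were 6 members (15.4%, all genes 5.13%). The nearest was Trim30a. At 12 h, none was called, against 0.466% higher and 0.0451% lower, and 12 members (30.8%, all genes 11.9%) had an unadjusted p under 0.05. Trim30a differed by 0.46 (adjusted p = 0.0505), Bst2 by 0.49 (adjusted p = 0.105) and Xaf1 by 0.36 (adjusted p = 0.191). At 48 h, none was called, against 0.11% higher and 0.14% lower, and 9 members (23.1%, all genes 11.7%) had an unadjusted p under 0.05. They were led by Ifngr2 (-0.40, adjusted p = 0.0794) and Socs1 (-0.77, adjusted p = 0.112). These comparisons share the 0 h arrays, so they are not independent of that at 24 h.

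From 24 h to 48 h no member was called, against 0.0251% of all genes higher and 0.0803% lower. At an unadjusted p under 0.05 were 3 members (7.69%, all genes 6.77%). Mx2, a GTPase of the Mx family, was at 5.67, 5.70, 6.04, 5.83 and 5.81 at 24 h and at 5.28, 5.52, 5.42, 5.46 and 5.37 at 48 h. These levels are far below that of the median gene (7.55). Every 48 h array was below every 24 h array, as in 0.928% of all genes (0.868% had every 48 h array higher). The difference of -0.40 passed the test with the culture number as a block (adjusted p = 0.0268, 0.878% of all genes lower) and not without it (adjusted p = 0.136). Ifit1 differed by -0.53 (adjusted p = 0.366) and Bst2 by -0.27 (adjusted p = 0.711).

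To determine whether the drug-selected lines differed without drug, the 4 untreated lines were compared with the 5 parental cultures at 0 h. One member was lower and none higher, against 0.0552% and 0.0201% of all genes, and 6 (15.4%, all genes 7.10%) had an unadjusted p under 0.05. The gene was Ifngr2, at 11.56, 11.54, 11.54 and 11.67 in R100, R500, R1000 and R4000, against 12.01 to 12.35 in the parental cultures. The log2 difference was -0.60 (95% interval -0.80 to -0.40, SE 0.09, adjusted p = 0.0446). The call was lost, at about the same size, without any 1 of the 4 lines and without parental culture 3, 4 or 5 (-0.65 to -0.56 over the 9 cases), after median centring and with the fibroblast mean as a covariate. Ifngr2 was also called at 24 h in parental cells, but both comparisons use the same 5 parental 0 h arrays and are not independent.

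All 4 lines lay below all 5 parental cultures in 3 members, Ifngr2, Irf1 and Ifnar1, and above them in none, where 1.33% of all genes were lower and 2.32% higher in this way. Irf1 stood at 8.90, 9.09, 8.97 and 9.20 in the lines in the order of dose, and at 9.70, 9.39, 9.59, 10.32 and 9.93 in the parental cultures. Its difference of -0.75 (95% interval -1.10 to -0.39) did not pass the test (adjusted p = 0.161). A second, dimmer probe set of Irf1 did not follow it, at 7.31 ± 0.18 in parental cells (n = 5) and 7.43 ± 0.10 in the lines (n = 4), and the mean of both probe sets gave a difference of -0.32. Ifnar1 stood at 9.69, 9.75, 9.70 and 9.76 in the lines and between 9.97 and 10.18 in the parental cultures (-0.34, adjusted p = 0.153).

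Socs1 had the largest difference of the 39, -0.77 (95% interval -1.28 to -0.26, adjusted p = 0.408). Its lines stood at 7.99, 8.20, 8.10 and 8.12, close to parental cultures 1 and 2 and below cultures 3 to 5. Herc6 had the largest difference upward, 0.38 (adjusted p = 0.882), with the lines at 8.30, 8.53, 8.26 and 8.54 inside the parental range of 7.09 to 8.69, and leaving out 1 array gave 0.14 to 0.54. The lines varied less than the parental cultures in both genes, as they did over all genes (median SD 0.105 in the lines and 0.186 in parental cultures at 0 h).

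All 4 receptor chains lay below 0 in the lines, with Ifngr1 at -0.06 and Ifnar2 at -0.08 beside the pair above. The remaining members lay between -0.30 (Ddx58) and 0.33 (Irgm1), and over all 39 the median was -0.06, with 16 above 0. None of 15 interferon genes, 21 signalling, 16 sensing and 44 further interferon-stimulated genes was called (3, 2, 2 and 6 at an unadjusted p under 0.05), nor any of the fibroblast markers, whose mean was 8.21 ± 0.22 in parental cells and 8.35 ± 0.08 in the lines. By the ranking that the study's methods describe, covariance with the order of resistance, Socs1 and Irf7 were among the 1000 lowest of 34760 probe sets and no member was among the 1000 highest (2.88% of probe sets at each end). By covariance with the order of time, Irgm1, Bst2, Ifit2 and Herc6 were among the 1000 highest and Socs1, Irf1 and Ifngr2 among the 1000 lowest.

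**Figure D5:**
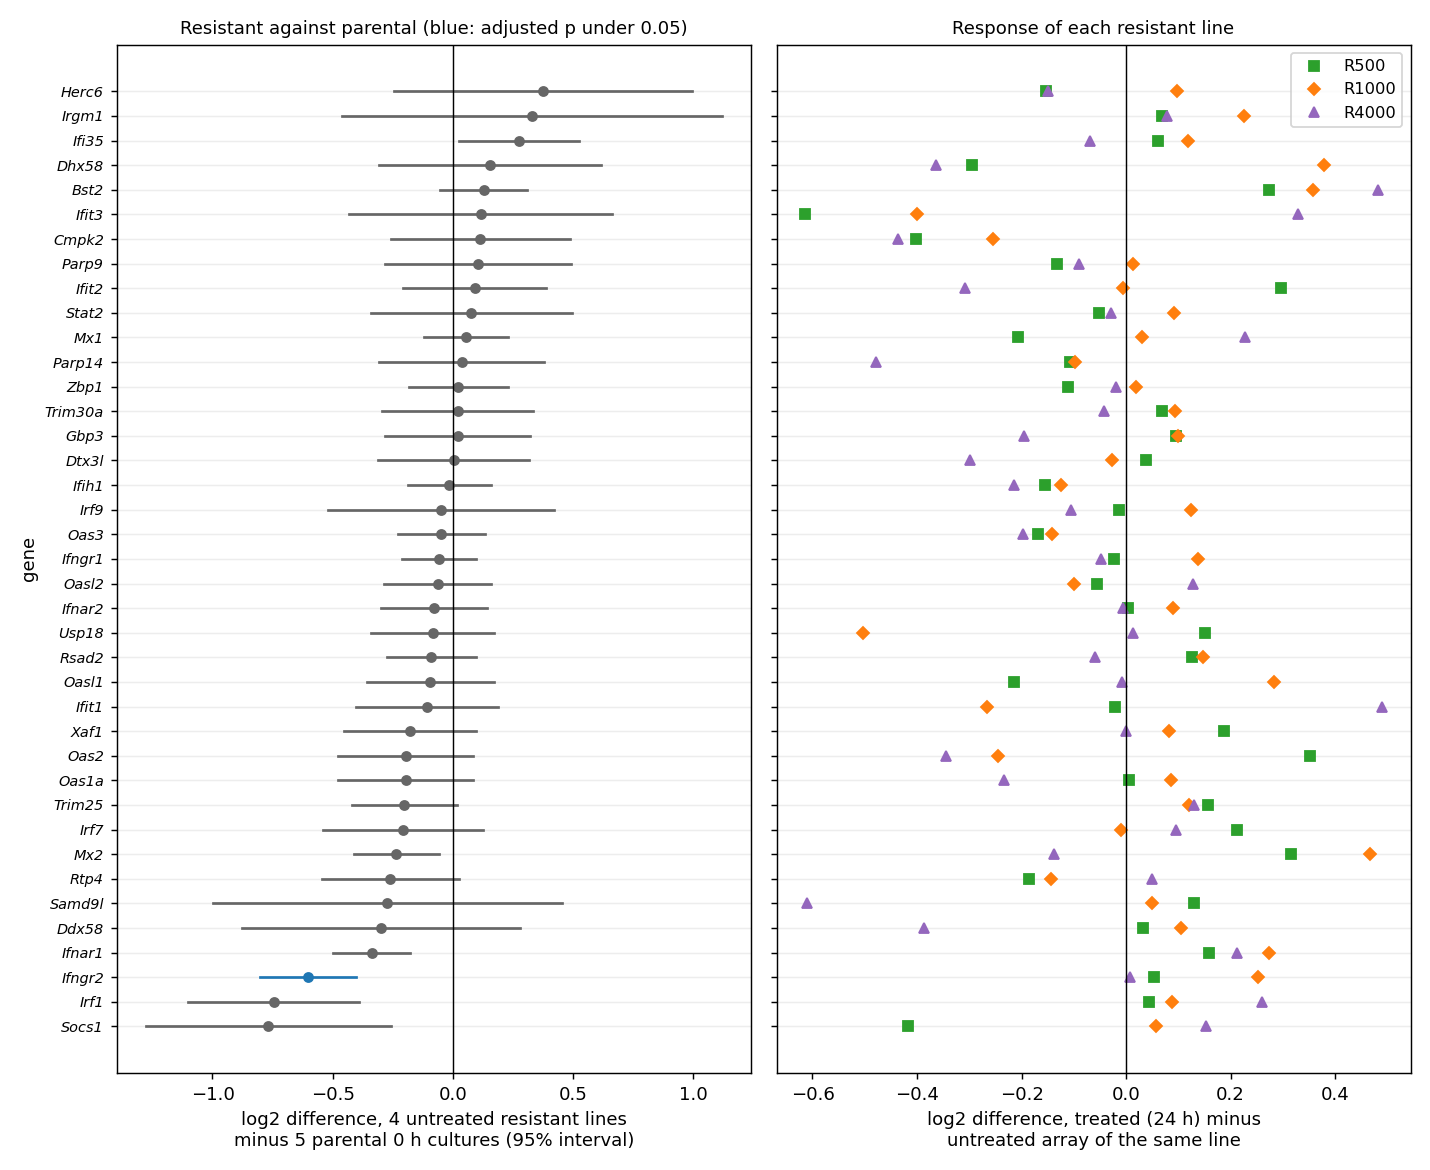
Left, log2 difference between the 4 untreated resistant lines and the 5 parental 0 h cultures (points) with 95% intervals (lines) for the 39 members, ordered by size; Ifngr2 in blue passed the test. Right, treated minus untreated log2 intensity in R500, R1000 and R4000, 1 array each; Bst2 lies above 0 and Cmpk2 below 0 in all 3 lines.

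To determine whether resistant lines still responded, R500, R1000 and R4000 after 24 h of drug were compared with the same lines untreated. No member was called, against 0.0251% of all genes higher and 0.00502% lower. At an unadjusted p under 0.05 were 2 members, Bst2 and Ifnar1 (5.13%, all genes 2.90%). Moved the same way in all 3 lines were 6 members upward and 4 downward, where 14.5% and 21.5% of all genes did so. The 6 were Bst2, Irgm1, Irf1, Trim25, Ifnar1 and Ifngr2, and the 4 were Cmpk2, Parp14, Oas3 and Ifih1.

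Bst2 went from 9.28 to 9.55 in R500, from 9.37 to 9.73 in R1000 and from 9.43 to 9.92 in R4000, differences of 0.27, 0.36 and 0.48. The mean was 0.37 (95% interval 0.08 to 0.66, adjusted p = 1.00). Cmpk2, a mitochondrial nucleotide kinase, went from 8.53 to 8.13, from 8.46 to 8.21 and from 8.65 to 8.21 (mean -0.36, adjusted p = 1.00). Parp14 went from 8.80 to 8.69, from 8.72 to 8.62 and from 8.89 to 8.41 (mean -0.23, -0.29 to -0.10 when 1 array was left out). Ifit3 was mixed, from 6.45 to 5.83, from 6.14 to 5.74 and from 5.53 to 5.85 (mean -0.23, -0.51 to -0.04 when 1 array was left out). Fibroblast markers lay below 0 in 23 of 26 in these lines, with none called and none at an unadjusted p under 0.05. Their mean went from 8.38 to 8.21, from 8.22 to 8.17 and from 8.41 to 7.88, in the direction opposite to Bst2. Whether this mean has a part in the Bst2 values was not tested.

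The difference between the resistant and the parental response was tested for every gene. No gene of the 19937 was called (0%), and 5 members, Ifnar1, Ifngr2, Parp14, Ifit2 and Gbp3, had an unadjusted p under 0.05 (12.8%, all genes 7.83%). For Bst2 the resistant response minus the parental one was -0.23 (adjusted p = 0.721), for Trim30a -0.40 (adjusted p = 0.654), for Gbp3 -0.46 (adjusted p = 0.606) and for Irgm1 -0.77 (adjusted p = 0.701). Ifngr2 stood at 0.42 (adjusted p = 0.424). The members called in parental cells at 24 h are therefore not shown to respond differently in the resistant lines.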

How the data were processed

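Transcript levels of parental and mafosfamide-resistant lymphoma cells were measured on 30 Affymetrix Mouse Gene ST 1.0 arrays. The authors made the deposited log2 values by robust multi-array averaging (justRMA of the affy package), which equalises the distributions of all arrays, so that total RNA per cell cannot be read from them. The processing notes name RMA, affy and mm9. Array medians lay between 7.28 and 7.44, and the number of arrays, which have no sequencing depth, limits the precision.

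Of 34760 probe sets, 21640 carried 1 symbol, 1321 several and 11799 were unnamed here; a gene was represented by its probe set with the highest mean. Groups came from the sample labels. Differences were fitted with limma 3.58.1 (lmFit and eBayes in R 4.3.3) and adjusted by the Benjamini-Hochberg method over 19937 genes, and an adjusted p under 0.05 was a call. All parental times shared one fit (23 arrays). A separate fit set the 4 untreated lines against parental 0 h, and another (16 arrays, line as a factor) gave the drug response of the lines. The script was tested on simulated data. Parental arrays are separate cultures of the same line, so p-values measure the spread between cultures and not between tumours. The fit without the block treats same-numbered arrays as independent. The resistant lines are successive stages of the same selection, so p-values for them do not measure the spread between independent selections.

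Culture numbers are those of the sample descriptions; the titles number the 6 h and 12 h samples differently. Same-numbered arrays deviated together over genes at 24 h and 0 h (correlations 0.131 to 0.342), at 6 h and 0 h (0.309 to 0.773) and at 48 h and 24 h (0.389 to 0.753). All were above the 0.1 required, so the block is given beside those results where it changed a call. At 12 h (0.0759) and 48 h (0.065) culture 3 fell short of 0.1. A 0 h array of another number correlated more for cultures 4 and 5 at 24 h and for culture 3 at 6, 12 and 48 h. The members, the gene lists and the motifs were chosen with earlier results of these data known. The genes named are all members, with values on every array for those called in any comparison and for the 4 with the largest difference among the resistant lines, and up to 4 called genes of each pathway list; Ifitm2 and Trim21, outside that rule, were named after their values were seen. Alternatives were median centring, the mean of probe sets, a filter on low levels, a trended robust prior, array weights, the fibroblast mean as covariate, the replicate block, fewer arrays in the fit and leaving out each array.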

Additional observations from a re-analysis of the deposited data

Results flagged for a closer look

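In 15 of the 234 groups of arrays examined, each being 1 gene at 1 time or in the untreated lines, a single array stood far from the rest, with its gap to the nearest array taking most of the range of the group. Chance gives this in about 1 in 20 groups. Below, the share of the range taken by that gap follows each gene.

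At 6 h culture 2 was far above the others in Usp18 (0.954), Ddx58 (0.847) and Samd9l (0.833), where its level was 10.10 against 9.08 to 9.25. Culture 3 was high in Ifih1 (0.883) and culture 4 low in Oas2 (0.900). At 12 h culture 3 was low in Zbp1 (0.909). At 24 h culture 1 was high in Ifit3 (0.872, 6.66 against 5.59 to 5.73) and Ifih1 (0.862) and low in Parp14 (0.929), culture 2 was low in Irf1 (0.850) and culture 3 high in Cmpk2 (0.733).

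Among the untreated resistant lines R100 stood apart in 4 genes, high in Irf7 (0.832, 7.12 against 6.48 to 6.59) and low in Trim25 (0.841), Parp9 (0.850) and Irgm1 (0.856).

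For 2 genes every parental culture moved one way at 24 h and all 3 resistant lines the other. Irf1 was lower in 5 of 5 parental cultures and higher in 3 of 3 lines, a difference in response of 0.44 (adjusted p = 0.669 with limma). The dimmer probe set of Irf1 was not examined in this way. Ifngr2 was likewise lower in 5 of 5 and higher in 3 of 3, a difference in response of 0.42 (adjusted p = 0.424). Some of these Ifngr2 changes were close to 0, with parental culture 1 at -0.00345 and R500, R1000 and R4000 at 0.053, 0.252 and 0.00845. Neither gene passed the test of the difference, and the lines had 1 array each per condition. The share of all genes with such opposite signs was not counted.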

How the results depend on the processing

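No named difference changed its sign under any alternative, and of the alternative values for the 14 named differences 214 stayed on their side of the threshold, 46 lost the call and 2 gained one. At 24 h, where 6 members were called, median centring also gave 6 (Zbp1 in place of Gbp3), array weights and the fibroblast covariate each gave 3, a fit on the 0 h and 24 h arrays alone gave 1 (Bst2), the replicate block gave 16, and, both chosen after seeing the data, the block with the fibroblast covariate gave 15 and the block without the fifth 0 h array gave 9. Leaving out 1 array gave 2 to 9. At 12 h, where none was called, the replicate block gave 4 (Bst2, Dtx3l, Gbp3 and Trim30a), array weights 2, and the low-level filter, the trended prior and the fibroblast covariate 1 each (Trim30a), with 0 to 2 when 1 array was left out (1 without 0 h array 1, 2 without 0 h array 2). At 48 h the block gave 5 in place of 0 (Bst2 and Gbp3 higher, Ifngr2, Irf1 and Socs1 lower), the filter and the fibroblast covariate 1 each (Ifngr2), and leaving out 1 array 0 to 3 (3 without 0 h array 1, 2 without 0 h array 2). Between 48 h and 24 h the block gave 1 (Mx2) and array weights 3 (Ifit1, Mx2 and Parp14). For the untreated resistant lines, where 1 was called, median centring gave 0, array weights 2 (Ifnar1 and Ifngr2) and leaving out 1 array 0 to 1, while with the fibroblast covariate the 1 gene called was Irf1 and not Ifngr2. For the treated lines array weights gave 1 (Bst2) in place of 0. The cause of these shifts was not tested. The block changed no call at 6 h.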
